A study of Mus musculus with 3 samples.

Results

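Genes of protein synthesis were compared between selected and unselected mouse thymocytes. The set held every measured gene whose symbol begins with Eif, Eef, Mrpl or Mrps, and every transfer RNA (tRNA) synthetase gene of the form Aars, Aars1 or Aars2, with any first letter. The interferon-induced kinase gene Eif2ak2, the Y-linked Eif2s3y and the cytosolic ribosomal protein genes were left out. In all, 74 of 6795 measured genes belonged to it. Of these, 18 were initiation factor genes, 4 regulators of initiation and 7 genes of elongation factors or of enzymes that modify them. The others were 6 cytosolic and 7 mitochondrial tRNA synthetase genes, and 19 and 13 genes named for the large and small subunits of the mitochondrial ribosome. Membership and class follow from the symbol alone, with no measured value and no check of each product's role. The rule was, however, written with earlier results of these data known.

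Each of 3 spotted arrays carried, as one sample, purified CD69hi thymocytes of wild-type B6 mice and, as the other, unseparated thymocytes from Zap70-/- mice, which lack the kinase that relays the T cell receptor signal. CD69 is a surface protein raised by that signal, so the comparison asks which transcripts differ after positive selection. The titles call the second RNA CD69lo. The 2 RNAs also differ in genotype and in purification. Neither age nor sex is given, and sex-linked RNAs differed between the 2 (values below). Nothing says whether separate mice supplied the 3 arrays, so each p-value reflects the spread of these arrays alone, which may be technical. The CD69hi RNA was labelled with Cy3 on arrays 1 and 2 and with Cy5 on array 3. Each value is a log2 ratio of CD69hi over Zap70-/- RNA, with arrays 1 and 2 turned in sign, and ± is the SD over 3 arrays. The direction is likely rather than stated: it rests on the dyes and on a few genes looked up for it. Rag1, a recombinase gene of immature thymocytes, was lower in CD69hi RNA (-1.19 ± 0.36, limma adjusted p = 0.035, but 0.13 without array 1 and 0.18 without array 2). Dntt was lower too (-1.05 ± 0.71, adjusted p = 0.12). Cd5 and Nr4a1 were higher on every array (4.755 ± 0.43 and 3.78 ± 0.06, adjusted p = 0.0051 each). Both also passed without array 1, 2 or 3. With the opposite reading every sign below would turn. In bulk RNA, fewer cells of a type and less RNA per cell cannot be told apart.

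Translation begins when eIF2 brings the initiator tRNA to the small ribosomal subunit and eIF4F (the cap-binding protein eIF4E, the scaffold eIF4G and the helicase eIF4A) loads messenger RNA onto it. Elongation factors then deliver charged tRNAs and move the ribosome, and tRNA synthetases charge each tRNA with its amino acid. Mitochondria use a ribosome and synthetases of their own, encoded in the nucleus, to make a few subunits of the respiratory chain. Resting thymocytes and T cells keep protein synthesis low, and cells that grow and divide raise it.

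Most of these genes lay close to 0, and the set as a whole lay slightly lower in CD69hi RNA. Their median log2 ratio was -0.20, against -0.0013 for all genes, and 56 of the 74 had a mean below 0. Of the 74, 65 (87.8%) were within 0.5 of 0, as were 79.8% of all genes. A gene passed the test where limma gave it a Benjamini-Hochberg adjusted p no higher than 0.05, adjusted over all 8905 features. By this test 2 genes rose, Eif4a2 and Eif4g3, which is 2.7% of the set against 4.13% of all features. None of the 74 fell, against 2.81% of all features, and calls in both directions together made up 6.94% of all features. With no adjustment (limma p no higher than 0.05), 2 genes were higher and 12 lower (16.2%, against 12.0% of all features for higher values and 11.4% for lower ones). Below 0 on every array were 27 genes (36.5%, against 24.1% of all genes), and 6 were above 0 on every array (8.11%, against 23.3%).

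The shift depended on the array. The median of the 74 genes was -0.30, -0.31 and -0.04 on arrays 1, 2 and 3, while that of all genes was -0.014, -0.013 and -0.004. Thus the shift was seen on both arrays with Cy3 on the CD69hi RNA and was near 0 on the array with the dyes reversed. The value on array 3 lay above those on arrays 1 and 2 in 50 of the 74 genes (67.6%, against 46.9% of all genes). In a fit with a term for dye orientation, the median was -0.15. The dye term itself was called in 0 of the 74 genes (limma, 16 by unadjusted p) and in 0 of all 8905 features (2161 by unadjusted p), and that fit leaves 1 residual degree of freedom. The orientations are unequal in number (2 arrays against 1), so a dye bias would not cancel in the means, and its part in the shift was not tested beyond these values.

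**Figure D1:**
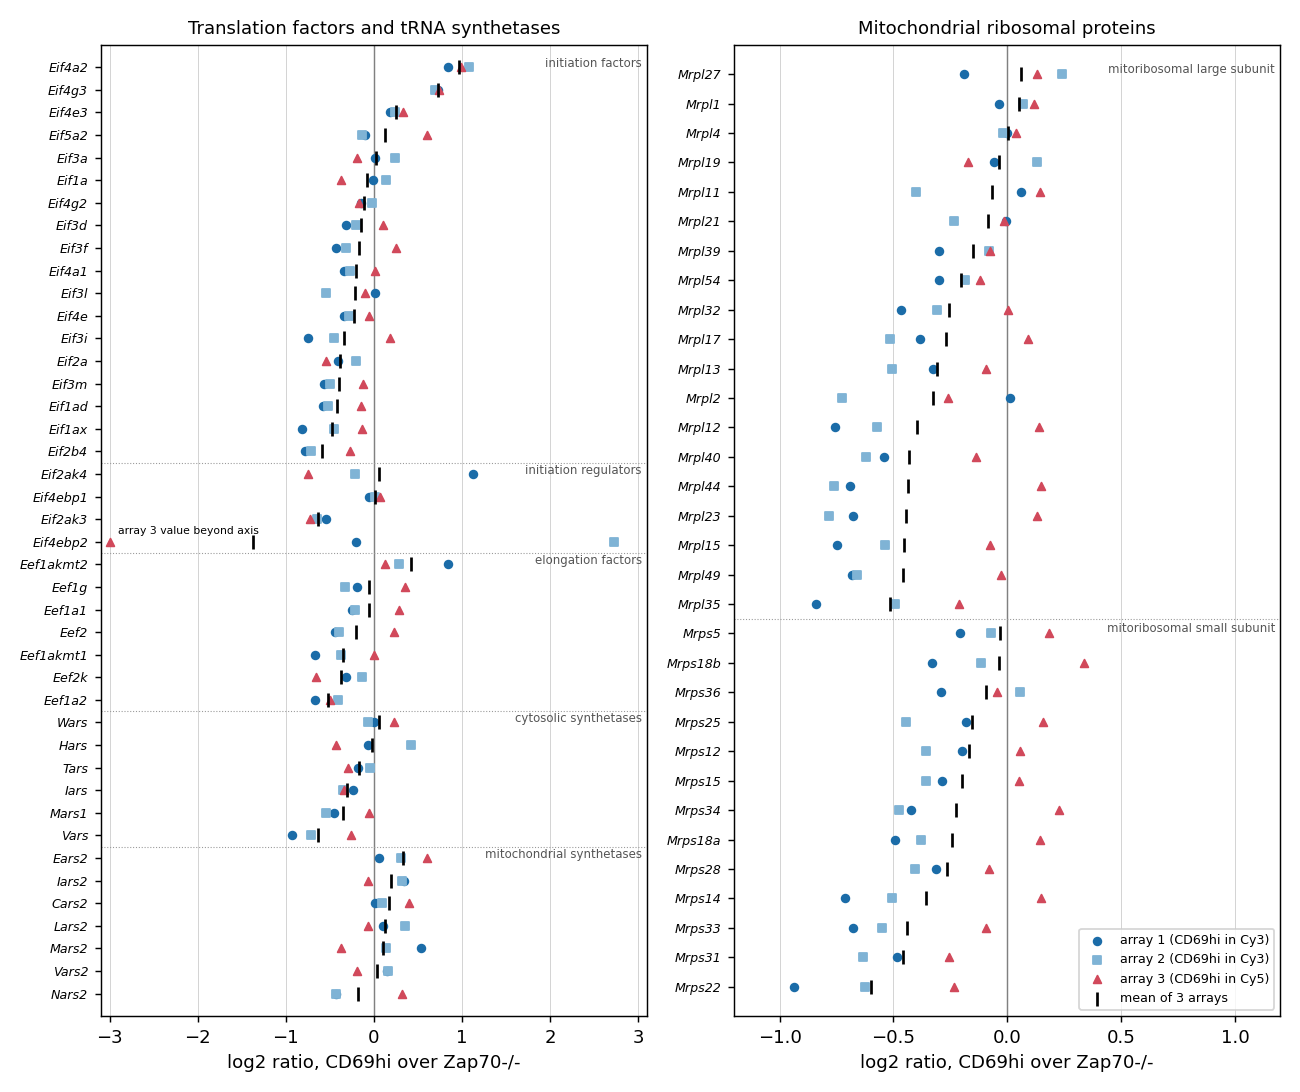
Log2 ratios (horizontal axis, CD69hi over Zap70-/-) of the 74 genes on each array, grouped by role; circles and squares are arrays 1 and 2, triangles array 3 and black bars the means. The 3 points of Eif4a2 and of Eif4g3 lie close together to the right of 0, and many triangles lie to the right of the circles and squares; the array 3 point of Eif4ebp2 is drawn at the axis end, its value being -6.66.

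Across genes, the arrays resembled each other to different degrees. Over the 74 genes, Pearson's r was 0.56 between arrays 1 and 2, 0.06 between arrays 1 and 3 and -0.55 between arrays 2 and 3. The sign of the last rests on Eif4ebp2, whose ratios did not repeat: without it the values were 0.75, 0.19 and 0.33. Genes are not independent replicates, and arrays 1 and 2 share their dye orientation.

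**Figure D2:**
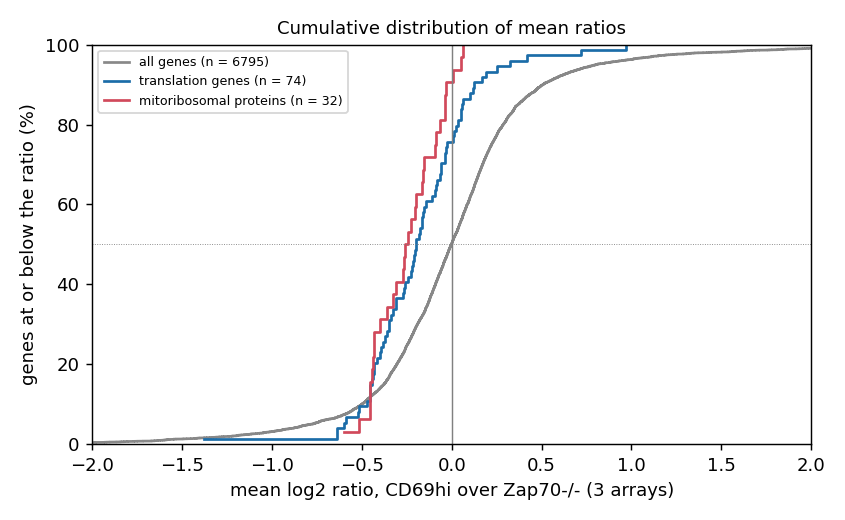
Share of genes (vertical axis, percent) with a mean log2 ratio at or below the value on the horizontal axis, for all 6795 genes, the 74 translation genes and the 32 mitoribosomal genes among them. The translation genes cross the 50% line at -0.20 and the mitoribosomal genes at -0.25, left of all genes.

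The genes that rose encode parts of the cap-binding machinery. Eif4a2, one of the DEAD-box helicases that unwind the start of a messenger RNA within eIF4F, had log2 ratios of 0.84, 1.08 and 0.99 on arrays 1, 2 and 3. Its mean of 0.97 ± 0.12 corresponds to a 1.96-fold higher level in CD69hi RNA (adjusted p = 0.028). Eif4g3 encodes eIF4GII, an alternative form of the scaffold that holds eIF4E and eIF4A together. It had log2 ratios of 0.73, 0.69 and 0.74, a mean of 0.72 ± 0.02 and a 1.65-fold higher level (adjusted p = 0.042). Both genes were clearly above 0 on every array, in either dye orientation. Neither call held in every smaller fit: Eif4a2 did not pass without array 1 (adjusted p = 0.10) or array 2 (0.21), and Eif4g3 did not pass without array 1, 2 or 3 (0.22, 0.33 and 0.050, the last just above the threshold). Their ratios in those fits stayed between 0.92 and 1.03 for Eif4a2 and between 0.71 and 0.73 for Eif4g3.

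The sequences upstream of these genes are shown because theirs are the transcripts of the set that passed the test. They are the 250 bases before the annotated start, from RefSeq (GRCm38.p6), with every CpG dinucleotide in capitals. The Eif4a2 sequence lies at chr16:23107218-23107467 and the Eif4g3 sequence at chr4:137993205-137993454, both on the plus strand. RefSeq lists 2 windows for Eif4g3, 1 base apart, of which the first is printed.
Eif4a2: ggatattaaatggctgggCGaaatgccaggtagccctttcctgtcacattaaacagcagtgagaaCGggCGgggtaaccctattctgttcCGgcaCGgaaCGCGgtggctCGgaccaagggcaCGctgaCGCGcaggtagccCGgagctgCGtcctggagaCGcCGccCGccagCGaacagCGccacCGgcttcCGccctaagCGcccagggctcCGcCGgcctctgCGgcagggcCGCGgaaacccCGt
Eif4g3: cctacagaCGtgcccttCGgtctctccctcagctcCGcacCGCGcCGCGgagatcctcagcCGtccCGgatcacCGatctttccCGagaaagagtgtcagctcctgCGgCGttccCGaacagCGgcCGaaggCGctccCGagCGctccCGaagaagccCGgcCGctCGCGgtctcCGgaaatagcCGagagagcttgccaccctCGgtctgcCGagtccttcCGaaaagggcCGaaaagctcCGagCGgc
Eif4a2 had 27 CpGs and Eif4g3 32. Windows of the same length were found for 57 of the 74 genes, and their median was 17 CpGs (range 4 to 35), against 6 over all 27025 genes with a window, noncoding ones included. As many CpGs as in Eif4a2 or more were held by 8.16% of all windows, and as many as in Eif4g3 by 4.39%.

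Searched on both strands, neither sequence held any of 5 motifs, which says only that these letters are not in these windows. Over the 57 windows, the E-box CACGTG, a site bound by Myc and related factors, was in 7 (12.3%, against 6.05% of all windows), among them those of Eif4a1, Eef2 and Iars. The ETS-type motif CCGGAAG was in 14 (24.6%, against 7.05%), including Mrps22 and Eif1ax. The stress-response element TGATGNAAN was in 1 (Tars; 1.75%, against 3.51%), and the NRF1 motif (GCGCA followed directly by TGCGC) was in 2 (Mrpl32 and Mrpl39; 3.51%, against 0.781%). TATAAA was in 2 (Eef2 and Eif3f; 3.51%, against 13% of all windows). The motifs with CpGs in them were searched in windows that hold more CpGs than most, and a match is not evidence of binding.

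The relatives of these genes had other values. Eif4a1, the other helicase gene, had log2 ratios of -0.34, -0.27 and 0.01 (mean -0.20 ± 0.19, adjusted p = 0.46). Eif4g2, which encodes an eIF4G-related factor that cannot bind eIF4E, had -0.14, -0.03 and -0.17 (mean -0.11 ± 0.07, adjusted p = 0.65). The ratios of Eif4a2 exceeded those of Eif4a1 by 1.17 ± 0.19, and those of Eif4g3 exceeded those of Eif4g2 by 0.83 ± 0.10, on 3 of 3 arrays each. The cap-binding gene Eif4e stood at -0.22 ± 0.15 (adjusted p = 0.39), and its relative Eif4e3 at 0.25 ± 0.08 (0.31), a difference of 0.47 ± 0.08 that was above 0 on 3 of 3 arrays. These pairs were picked after their values were seen, and with 3 arrays an exact two-sided sign-flip test cannot give a p below 0.25, which is what each gave (0.29 adjusted over the 7 pairs compared in all). Probes of spotted cDNA can bind transcripts of close relatives, and whether those of Eif4a1 and Eif4a2 do was not tested.

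**Figure D3:**
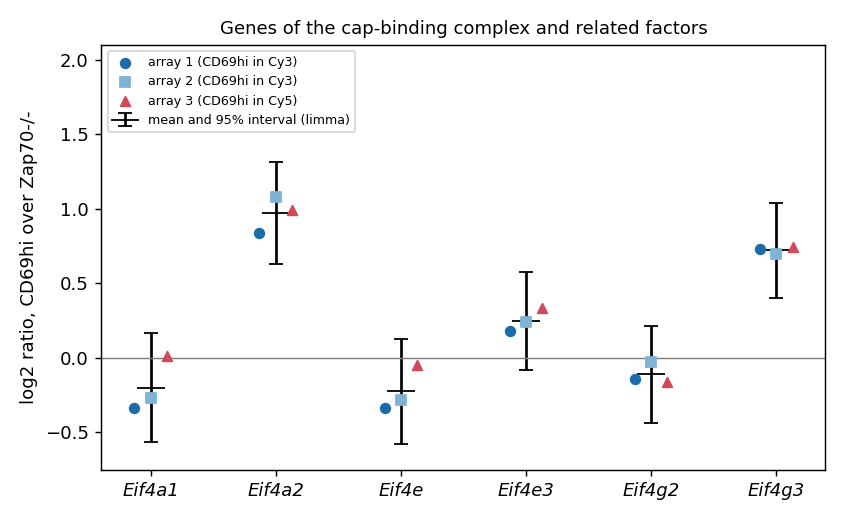
Log2 ratios (vertical axis) of 6 genes for eIF4A, eIF4E, eIF4G and related factors on each array, with the mean and its 95% interval from limma as black bars. The intervals of Eif4a2 (0.63 to 1.31) and Eif4g3 (0.40 to 1.04) lie above 0 and those of the other 4 genes include it.

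Of the 18 initiation factor genes, the other 16 did not pass (class median -0.18). A mean below 0 was found in 13 of the 18 (72.2%, against 50.2% of all genes). By unadjusted limma p, 2 of the 18 were higher (11.1%) and 4 lower (22.2%), against 12.0% and 11.4% of all features. The lowest was Eif2b4, a subunit of the exchange factor that recharges eIF2 with GTP, with -0.78, -0.71 and -0.27 (mean -0.59 ± 0.28, adjusted p = 0.11). It was below 0 on every array, and passed without array 3 (-0.75, adjusted p = 0.049), where 4.59% of all features passed as lower and 3.18% as higher. Eif1ax, an X-linked gene for the scanning factor eIF1A, had -0.82, -0.46 and -0.14 (mean -0.47 ± 0.34, adjusted p = 0.21). Its mouse relative Eif1a stood at -0.08 ± 0.26. The 6 measured subunits of eIF3, the complex that holds the small subunit ready for messenger RNA, ran from -0.39 ± 0.24 (Eif3m) to 0.02 ± 0.21 (Eif3a), with medians of -0.37, -0.39 and -0.003 on arrays 1, 2 and 3. Eif2s1 and Eif2s3x, which encode subunits of eIF2, were not analysed here.

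Among the regulators, Eif2ak3 came closest to the threshold. It encodes PERK, the kinase that slows initiation by phosphorylating eIF2 when unfolded proteins gather in the endoplasmic reticulum. Its log2 ratios were -0.55, -0.65 and -0.73, close together and below 0 in either orientation, with a mean of -0.64 ± 0.09 (adjusted p = 0.058). It passed in the fit with a dye term (-0.66, adjusted p = 0.043), in which 5.77% of all features were called lower and 6.31% higher. Its adjusted p ran from 0.043 to 0.425 over the 9 alternatives computed for it. Eif2ak4, which encodes the amino acid sensor GCN2, had 1.12, -0.21 and -0.75 (mean 0.05 ± 0.96), so the arrays differed in sign. Eif4ebp1, an inhibitor of eIF4E that mTORC1 switches off, was the gene of this class nearest 0, with -0.05, 0.01 and 0.07 (mean 0.01 ± 0.06, 95% interval -0.31 to 0.34). Its relative Eif4ebp2 had -0.20, 2.72 and -6.66. Those ratios are far apart, array 3 held the one value of the set beyond 4 in size, and no level can be read from them.

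The elongation class held 4 genes of elongation factors, and the others encode enzymes that modify them. Of the 7 genes, 0 passed, while 4.13% of all features were called higher and 2.81% lower (limma). By unadjusted limma p, 0 were higher and 1 lower (14.3%), against 12.0% and 11.4% of all features. A mean below 0 was found in 6 of the 7 (85.7%, against 50.2% of all genes). Eef1a2, the form of the tRNA carrier eEF1A known from muscle and neurons, was lowest, with -0.67, -0.41 and -0.50 (mean -0.52 ± 0.13, adjusted p = 0.097). The general form Eef1a1 had -0.25, -0.21 and 0.28 (mean -0.06 ± 0.30), and many processed copies of this gene exist, so its probe may bind several transcripts. The translocase gene Eef2 had -0.45, -0.40 and 0.23 (mean -0.21 ± 0.38), and the eEF1 complex gene Eef1g had -0.20, -0.33 and 0.36 (mean -0.06 ± 0.36). Those 3 genes were negative on arrays 1 and 2 and positive on array 3, so no direction is given for them. Eef2k, the kinase that inhibits eEF2, stood at -0.37 ± 0.27 (adjusted p = 0.25). The methyltransferase gene Eef1akmt2 was the highest at 0.42 ± 0.38 (adjusted p = 0.27).

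The class medians of the cytosolic and mitochondrial tRNA synthetase genes lay on different sides of 0, in small classes. Of the 13 genes 0 passed, while 4.13% of all features were called higher and 2.81% lower (limma). By unadjusted limma p, 0 were higher and 1 lower, against 12.0% and 11.4% of all features. Of the 6 cytosolic genes, 5 had a mean below 0 (83.3%, against 50.2% of all genes). Below 0 on every array were 4 (66.7%, against 24.1% of all genes), and the class median was -0.24. The valyl-tRNA synthetase gene Vars was lowest, with -0.93, -0.71 and -0.26 (mean -0.64 ± 0.34, adjusted p = 0.12), followed by the methionyl gene Mars1 at -0.35 ± 0.26 (0.27). The isoleucyl gene Iars varied least among them (-0.31 ± 0.06, adjusted p = 0.23). The tryptophanyl gene Wars, which interferon also induces, stood at 0.06 ± 0.16, and the histidyl gene Hars at -0.03 ± 0.43 changed sign between arrays. Of the 7 mitochondrial genes, 6 had a mean above 0 and 1 a mean below 0 (14.3%, against 50.2% of all genes). The class median was 0.13. Highest were the glutamyl gene Ears2, with 0.06, 0.31 and 0.60 (mean 0.32 ± 0.27, adjusted p = 0.30), and the isoleucyl gene Iars2 (0.19 ± 0.23). Nars2 was lowest at -0.18 ± 0.43, and its 2 probes had means of -0.37 and 0.0023. By array, the class medians were -0.21, -0.21 and -0.28 for the cytosolic genes and 0.10, 0.16 and -0.07 for the mitochondrial ones. The mitochondrial class was therefore higher than the cytosolic class on each array, by an amount that was not tested, and its own sign differed on array 3. In 2 of the 3 pairs of a mitochondrial and a cytosolic enzyme for the same amino acid, the mitochondrial gene had the higher ratio on every array. Vars2 exceeded Vars by 0.67 ± 0.53 (1.08, 0.87 and only 0.07 on arrays 1, 2 and 3) and Iars2 exceeded Iars by 0.50 ± 0.21. Mars2 exceeded Mars1 on 2 of 3 arrays (0.45 ± 0.68). The exact sign-flip p was 0.25, its lowest possible value, for the Vars and Iars pairs and 0.5 for the Mars pair.

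Of the 32 mitoribosomal protein genes, 29 had a mean below 0 (90.6%, against 50.2% of all genes) and 0 passed (limma). By unadjusted p, 0 were higher and 5 lower (15.6%, against 11.4% of all features). Their median was -0.25 and their means ran from -0.60 to 0.06, a narrow range in which 30 of 32 lay within 0.5 of 0. In the small subunit, Mrps22 was lowest, with -0.94, -0.63 and -0.23 (mean -0.60 ± 0.35, adjusted p = 0.14), and Mrps31 followed at -0.46 ± 0.19 (0.15). In the large subunit, Mrpl35 had -0.84, -0.50 and -0.21 (mean -0.52 ± 0.31, adjusted p = 0.16) and Mrpl49 had -0.68, -0.66 and -0.03 (mean -0.46 ± 0.37, adjusted p = 0.23). These 4 genes were below 0 on every array, as were 12 of the 32 (37.5%, against 24.1% of all genes), and 0 of the 32 were above 0 on every array. The highest were Mrpl27 (0.06 ± 0.22) and Mrpl1 (0.05 ± 0.08) in the large subunit and Mrps5 (-0.03 ± 0.20) and Mrps18b (-0.04 ± 0.34) in the small one. The 2 probes of Mrps5 had means of -0.32 and 0.25.

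The mitoribosomal values on array 3, the only array with the dyes reversed, differed from those on arrays 1 and 2. Because no other array had that orientation, the dyes and the array itself cannot be told apart. On arrays 1 and 2 their medians were -0.33 and -0.43, with 30 and 28 of 32 genes below 0, but on array 3 the median was 0.02 with 15 of 32 below 0. In 27 of the 32 genes (84.4%) the array 3 value exceeded both others, against 46.9% of all genes, and the part of the dyes in these ratios was not tested. The same pattern was present in 26 cytosolic ribosomal protein genes (medians -0.29, -0.29 and 0.28) and in 33 oxidative phosphorylation genes (-0.62, -0.48 and 0.09). Of either group 0 passed (limma), and 0 and 5 were lower by unadjusted p, as were 11.4% of all features. Without array 3, 4 of the 33 oxidative phosphorylation genes passed as lower, against 4.59% of all features. With a dye term 1 of the 33 passed as lower, against 5.77%. The array 3 value also exceeded both others in 25 of 26 cell cycle genes, but 25 of the 26 were below 0 on every array, with medians of -1.36, -1.66 and -0.73.

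**Figure D4:**
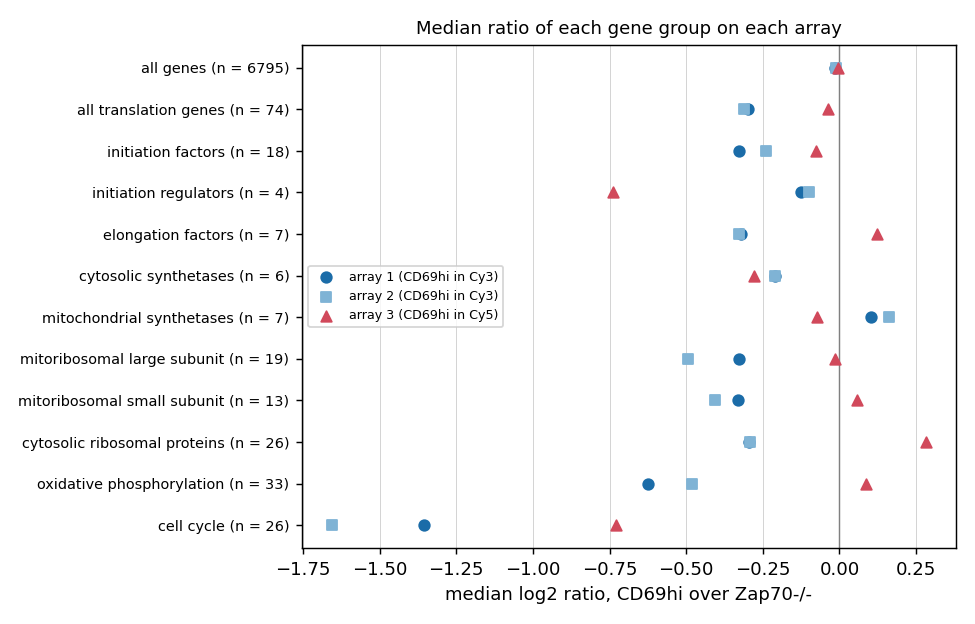
Median log2 ratio (horizontal axis) of each gene group on each of the 3 arrays; n is the number of genes measured. The mitoribosomal, cytosolic ribosomal and oxidative phosphorylation groups lie left of 0 on arrays 1 and 2 and between -0.01 and 0.28 on array 3, whereas the cell cycle group lies left of 0 on every array.

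Other genes of protein synthesis and its control mostly did not pass either. For comparison, 4.13% of all features were called higher and 2.81% lower (limma), and by unadjusted p 12.0% were higher and 11.4% lower. In the lists of release and recycling factors (9 genes measured, median -0.10), mitochondrial translation factors (5, -0.09), synthetase partners such as Aimp1 and Eprs (4, -0.15) and the mTORC1 pathway (18, -0.19), 0 genes passed (limma; by unadjusted p 1, 1, 1 and 4 were lower and 0 higher). Of 24 ribosome biogenesis genes (median -0.01), 1 fell, Wdr12, which acts in large subunit maturation (-1.11 ± 0.37, adjusted p = 0.041). Of 14 genes of the integrated stress response, the programme that PERK and GCN2 start (median -0.14), 1 fell, the transcription factor gene Atf5 (-0.99, -0.86 and -0.87, adjusted p = 0.030). Its relative Atf4, the main effector, stood at 0.15 ± 0.15 (adjusted p = 0.58). Of 9 genes of the Myc family and its partners (median -0.42), 2 fell, both partners that oppose Myc: Mxd3 (-2.13 ± 0.98, adjusted p = 0.048) and Mxi1 (-0.82 ± 0.06, 0.034). The list holds Myc genes as well as partners that oppose Myc, so its median mixes both kinds. By unadjusted limma p, 5 of the 9 were lower and 1 higher, the Mxd3 relative Mxd1 (0.54, 0.66 and 0.20, adjusted p = 0.16). Myc itself had -0.76, -0.83 and -0.35 (mean -0.65 ± 0.26, adjusted p = 0.089). Without array 1 or array 2, none of Wdr12, Atf5, Mxd3 and Mxi1 passed (adjusted p from 0.13 to 0.28), and Wdr12 and Mxd3 did not pass with the arrays scaled (0.055 and 0.060).

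Cell cycle genes and markers of other cell types also differed between the RNAs, and their part in the translation genes' ratios was not tested. Of all features, 4.13% were called higher and 2.81% lower. Without arrays 1, 2 and 3, 1.90%, 1.07% and 3.18% were called higher and 0.359%, 0.270% and 4.59% lower. Of 26 cell cycle genes, 9 fell and 0 rose (median -1.27), Bub1b furthest (-2.14 ± 0.81, adjusted p = 0.035), with 0 falling without array 1 or array 2 and 17 without array 3. Of 19 macrophage, dendritic cell and granulocyte markers, 9 rose and 1 fell (median 1.05, range -1.98 to 2.83), with 7 rising and 0 falling without array 1 or array 2. Without array 3, 8 of the markers rose and 3 fell. With a dye term 8 rose and 4 fell, where 6.31% of all features were called higher and 5.77% lower. These markers were split: the lysosomal protease gene Ctss rose most (2.83 ± 0.41), and Lyz2, C1qa and Apoe rose by 2.23 to 2.51, while the granulocyte genes S100a8, S100a9, Mpo, Ltf, Ngp and Camp were below 0 on every array, of which S100a8 passed (-0.86 ± 0.27, adjusted p = 0.049). Of 8 B cell markers 1 rose, Jchain, but 0 did without array 2, without array 3, with the arrays scaled or with a dye term. Of 7 natural killer and innate-like markers 2 rose and 1 fell, but 0 passed without array 2, and 1 rose and 0 fell without array 1, and 1 rose and 1 fell without array 3. Of 7 erythroid and 9 stromal markers 0 passed (limma, 2 erythroid higher and 2 stromal lower by unadjusted p). Of 12 T cell and thymocyte markers, 2 rose (Cd5 and Cd6) and 1 fell (Rag1). Sex-linked RNAs differed too, and of 5 measured 1 rose and 2 fell. Xist was higher in CD69hi RNA (1.84 ± 0.79). Lower were Eif2s3y, the Y-linked eIF2 gene left out of the set (-1.61 ± 0.64), and Kdm5d, also Y-linked (-1.57 ± 0.62). None of Xist, Eif2s3y and Kdm5d passed without array 2 (limma adjusted p = 0.13 each) or array 3 (0.10, 0.0765 and 0.094). Ratios carry no levels, so whether a marker was present in both RNAs was not analysed here, and the precision of every value is limited by the number of arrays.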

How the data were processed

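The authors' deposited values are 1 log ratio per probe and array for 9596 probes, with medians from -0.005 to -0.002. The deposited ratios were treated as log2 of Cy5 over Cy3; how the authors computed them (base, background correction, filtering, normalization) the sources used here do not give. A natural logarithm would make the folds larger. Spot intensities were not used.

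Arrays 1 and 2 were multiplied by -1. The 7486 probes with 1 gene symbol in the platform annotation were averaged per symbol (6795 genes), and the other 2 kinds, 483 probes with several symbols and 1627 with none, stood alone, giving 8905 features. Of the 1-symbol probes, 7395 were found in RefSeq, with 0 symbols changed. Of the 74 genes, 4 had over 1 probe.

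Each feature was fitted with limma 3.58.1 in R 4.3.3 (1 coefficient, 2 residual degrees of freedom, 2.75 added by shrinkage), two-sided, with Benjamini-Hochberg adjustment over all features and a threshold of 0.05. The fit was tested on simulated data. The genes and lists were chosen with earlier results of these data known. Named were genes that passed, the 2 highest and 2 lowest of each class, a few control points and, of each list, the extremes that passed. Others were named after their values were seen.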

Additional observations from a re-analysis of the deposited data

How the results depend on the processing

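The number of translation genes called higher was 2, and 0 to 1 with an array left out, 0 with array 3 unturned and 0 when a ratio of 2-fold or more was required on each array. The shares of all features called higher also fell, to 1.90%, 1.07% and 3.18% without arrays 1, 2 and 3. With array 3 unturned the share was 0.00%, and 1.89% were 2-fold or more higher on each array. The number called lower was 0, and 0 to 1 with an array left out and 1 with a dye term. Of all features, 0.359%, 0.270% and 4.59% were called lower without arrays 1, 2 and 3, and 5.77% with a dye term. Fits without an array have fewer residual degrees of freedom. The median of the 74 genes stayed below 0, from -0.29 without array 3 to -0.14 without array 1. Eif4a2 passed in 7 and Eif4g3 in 6 of 9 alternatives, with one direction throughout (adjusted p from 0.023 to 0.21 and from 0.037 to 0.33).

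Of 279 pairs of a named gene and an alternative, 24 changed sign, all in genes that did not pass; the cause was not tested. With 1 array left out, the mean ratio ran from -0.23 to 0.034 for Eef1a1, -0.26 to 0.079 for Eef1g, -0.48 to 0.45 for Eif2ak4, -0.020 to 0.043 for Eif4ebp1 and -3.43 to 1.26 for Eif4ebp2 (1.26 also with values beyond 4 left out). It ran from -0.25 to 0.18 for Hars, -0.030 to 0.19 for Mrpl27, -0.22 to 0.11 for Mrps18b, -0.14 to 0.057 for Mrps5, -0.025 to 0.15 for Vars2 and -0.032 to 0.12 for Wars. With a dye term the values turned to 0.024 for Eef1a1, 0.046 for Eef1g, -0.15 for Eif2ak4, 0.057 for Mrps18b, 0.023 for Mrps5 and -0.021 for Vars2. Hars turned to 0.0061 with scaling and 0.0096 with quantile normalization. Each array carries both RNAs, so each ratio already pairs them, and the ratios were fitted as 1 group with no further pairing.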

Other observations

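The platform annotation lists 10 further probes under several symbols of which 1 is a translation gene's, so their transcript is uncertain, and 0 of them passed (limma). The probe for Eif5a or its pseudogene had log2 ratios of -0.33, -0.63 and 0.22. The probe for Mrpl41 or Dph7 had -0.65, -0.43 and -0.12 (mean -0.40 ± 0.27, SD, n = 3). Both probes for Mrps25 or Nr2c2 had negative means (-0.47 ± 0.13 and -0.39 ± 0.30), and the 2 probes that name Eif4e2 had means of opposite sign (0.37 ± 0.16 and -0.18 ± 0.26). The probe for Aars or Exosc6 stood at -0.07 ± 0.12, the 2 probes for Ankhd1 or Eif4ebp3 at -0.03 ± 0.18 and -0.06 ± 0.13, and the probe that names Mrps6 at 0.23 ± 0.41.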
